A study of Mus musculus with 25 samples.

Results

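The semaphorins, plexins, ephrins and Eph receptors of mouse chromosomes 1 to 19 were described by their DNA methylation in the mammary fat pad. The members were all genes whose symbols begin with Sema3 to Sema7, Plxna to Plxnd, Epha, Ephb, Efna or Efnb in the deposited annotation. This rule reads symbols only, but the families were picked with earlier results of these data known. At an average coverage of at least 10 reads they were 44 of the 15522 genes with a symbol and held 1802 of 260376 CpGs, the cytosine-guanine pairs at which mammalian DNA is methylated. A further 2 member genes, Sema3a and Plxna4os1, an antisense gene, had CpGs of lower coverage only.

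Semaphorins are secreted or membrane-bound ligands that signal mainly through plexins, with neuropilins as co-receptors of the secreted Sema3 class. Ephrins are membrane-bound ligands of the Eph receptor tyrosine kinases, and because ligand and receptor both sit on cell surfaces, each pair can signal into both of the touching cells. The 4 families steer growing axons and blood vessels, and in the mammary gland Epha2 takes part in duct branching and Ephb4 is expressed with the hormonal cycle. Methylation at a promoter in a CpG island usually goes with a silent gene, whereas methylation inside gene bodies is common in expressed genes.

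The study used wild-type C57BL/6N mice. Most were made obese on a 60% high-fat diet and then either changed to a weight-loss diet or stayed obese (Obese), and 1 group ate a control diet throughout (Control). The 4 weight-loss arms were MCR (Mediterranean-style food, calories restricted by 30%), LFCR (low-fat food, calories restricted by 30%), LFD (low-fat food, unrestricted) and ICR (calories restricted intermittently). After 25 weeks every mouse, Control included, was injected with E0771 mouse mammary cancer cells in 1 fat pad, and the opposite, uninjected pad gave the DNA. The labels also list E0771 as a cell line, and the titles hold the word tumor. No RNA values were used here, so the tissue could not be checked by the expression of its markers. Every weight-loss mouse had been obese first and no pad from before the diets is used here, so earlier obesity and the later diet cannot be told apart in any comparison with Control, and "lower" and "higher" mean relative to Control mice only.

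Methylation was read by reduced representation bisulfite sequencing (RRBS), which sequences short fragments cut at CCGG sites, and is given as the percentage of reads that were methylated. Differences are in percentage points, called points. Of 25 libraries, those of Obese mice 27, 28 and 40 and LFD mouse 46 were left out, as fixed at the outset and not by a test made here. Their median level over at most 5 member regions under 10% in Control was 33.5% to 39.1%, against 0.559% to 9.05% in the 5 Control mice. These 4 libraries had values at only 85 to 97 of the 137 member regions tested below. The comparisons rest on 20 mice, 3 in MCR, 4 in LFCR, 3 in LFD, 5 in ICR and 5 in Control, and Obese mouse 22 is shown but not tested. A region is a run of at least 3 CpGs of 1 gene and 1 annotation class with gaps of at most 100 bp. Member CpGs had a median coverage of 44.4 reads averaged over 21 libraries, against 32.1 reads for all CpGs. The reads behind a single value in a single mouse are unknown.

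The start sites show which member CpGs can be called promoter CpGs and how they look in sequence. RefSeq promoter windows, which run from 250 bases before to 50 bases after a gene's start on GRCm38.p6 (mm10), held 18 member CpGs of 11 genes, and 12 of these lay in a CCGG site. The stretches below are those where a mouse group differed at the start (Ephb3, Epha10), a highly methylated alternative start inside a gene (Sema4d) and starts almost without methylation for contrast (Sema4c, Efna3, Sema4b). Those of Sema4c and Efna3 are also alternative starts inside the gene, and that of Sema4b is at its 5′ end. They are given 5′ to 3′ on the gene's strand, with the measured CpGs in capitals.
Ephb3, chr16:21204791-21204820, plus strand: cgtgagCGgCGcagccagatacCGgctcct
Epha10, chr4:124881770-124881799, plus strand: gcgagactcCGccccagcCGgcgttggggt
Sema4d, chr13:51748779-51748808, minus strand: acagacatctcagcCGggcagaggccccac
Sema4c, chr1:36557581-36557610, minus strand: ctcccgttctgctcCGgaggcgggctggca
Efna3, chr3:89321739-89321768, minus strand: gccggctgccggacCGggccatcattctgc
Sema4b, chr7:80186837-80186866, plus strand: ctgcccagcatttcCGgggacaccgcgctg

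At the Ephb3 start the 3 capital CpGs had mean levels of 2.64%, 7.91% and 0.855% in MCR, against 11.1%, 14.3% and 10.9% in Control, in the order printed. The CpG 18 bases after the start was lower in MCR by 10.1 points (adjusted p = 0.00413, limma with Benjamini-Hochberg adjustment over all CpGs) and the first by 8.51 points (adjusted p = 0.0494), while the middle one did not pass the test (adjusted p = 0.272). At Epha10 the CpG 6 bases before the start stood at 3.64% ± 6.30 (SD, n = 3) in MCR and 16.7% ± 6.49 in Control (SD, n = 5), a difference of -13.1 points (limma, adjusted p = 0.0130). The Sema4d CpG was highly methylated in every group, at 78.9% ± 5.81 (SD, n = 3) in MCR and 67.1% ± 5.84 in Control (SD, n = 5), and rose by 11.9 points in MCR (limma, adjusted p = 0.0343). At the 12 window CpGs of the other 8 genes no group mean exceeded 5.56% in MCR or 4.17% in Control. Of 11 window CpGs with enough mice to test, 4 passed in MCR, namely 2 at Ephb3, 1 at Epha10 and 1 at Sema4d. Of all tested CpGs 32.8% were lower and 4.54% higher in MCR, and of all promoter CpGs 24.7% and 3.41%. With each mouse centred on its mean deviation over all regions, the Ephb3 region that holds these CpGs turned from -8.77 to 1.32 points.

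Of the 44 genes, 42 had a region and 30 had a region measured in at least 3 mice of each group. These 30 genes held 137 tested regions with 857 CpGs, of which 116 were in gene bodies, 10 in promoters (upstream of the start, 5'UTR or 1st exon), 10 in 3'UTRs and 1 was intergenic. In MCR 84 of the 137 regions were lower and 8 higher than in Control at an adjusted p under 0.05 (limma, Benjamini-Hochberg adjustment over all regions). Among all 16842 tested regions 55.6% were lower and 6.92% higher, so the member shares of 61.3% and 5.84% lie near the background. The median MCR difference was -9.53 points in the member regions and -9.28 points in all regions. With each mouse centred on its mean deviation over all regions the all-region median became 0.83 points, and the split of the member calls became 40 lower and 30 higher, beside 3568 lower and 3713 higher of all regions. The losses reported here thus include the loss shared by the whole table, and the direction of the split depends on the scaling. Without Control mouse 2 or 13, which gave the lowest count, 81 member regions passed, and without LFD mouse 47, which gave the highest, 98 did. Over all regions, 8132 were lower and 989 higher of 16131 without Control mouse 2. The counts were 8440 and 1045 of 15767 without Control mouse 13, and 9407 and 1174 of 16989 without LFD mouse 47.

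Ephb2 made up 31 of the tested member regions and 27 of the 84 losses. Without it 53.8% of the other 106 member regions were lower, beside the 55.6% of all regions. In gene bodies alone the share without Ephb2 was 57.3% of 89 member regions, beside 56.1% of all body regions. The families' counts are therefore given one by one, and regions of 1 gene are not independent of each other. Centred per mouse, Ephb2 kept a median of -11.3 points with 17 regions lower and 2 higher, while the other member regions had a median of 1.79 points with 23 lower and 28 higher. The plot of all tested regions shows where the members lie among the rest.

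**Figure D1:**
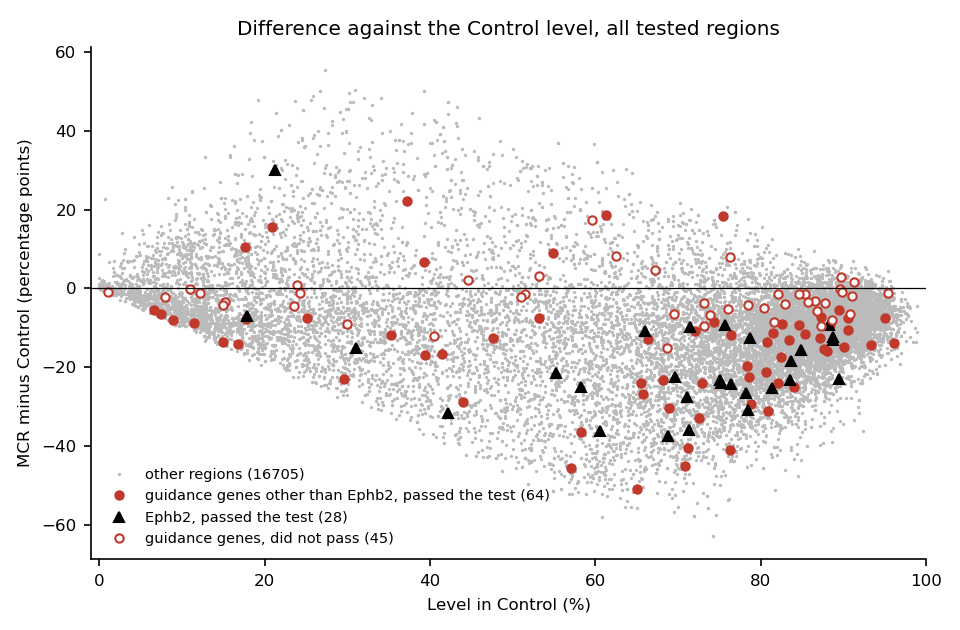
MCR minus Control difference in percentage points against the Control level in percent, 1 point per tested region, for 16705 other regions (grey), member regions that passed the test (red circles, black triangles for Ephb2) and member regions that did not (open circles). The members spread over the same range as the grey points, with most losses at Control levels over 50%, and the largest gain, of 30.1 points, is in Ephb2 at a Control level of 21.2%.

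By Control level, the members fell most where Control methylation was 50 to 80%. The median MCR difference was -19.6 points in the 53 member regions at 50 to 80% in Control, against -16.0 points in all such regions, and -9.33 points in the 50 member regions over 80%, against -9.57 points in all such regions. In the 29 member regions at 10 to 50% the median was -7.36 points, against -6.08 points in all such regions, and 5 of these member regions were higher. Only 5 member regions lay under 10% in Control, and 3 of them (60%) were lower in MCR, beside 10% of the 910 regions of that kind in the table. These bins include Ephb2, whose 31 regions had a median Control level of 75.1% and a median difference of -21.4 points. In the other 106 member regions the median difference was -8.23 points. The bins were not repeated without Ephb2 or under centring, and the Control levels that set them also enter the differences.

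In LFCR 53 of the 137 regions were lower and 3 higher than in Control (limma), shares of 38.7% and 2.19% beside 32.4% and 3.94% of all regions. Ephb2 held 21 of the 53 losses, and 32 of the other 106 member regions were lower. The median difference was -6.31 points in the members and -5.91 points in all regions. Centring each mouse changed the split to 25 lower and 12 higher, beside 1883 lower and 1769 higher of all regions, with an all-region median of 0.70 points. The uncentred count rests on single mice. It was 10 without LFCR mouse 63, 14 without LFCR mouse 67 and 37 without Control mouse 2. The counts over all regions fell too. Without these mice in turn, 767 were lower and 65 higher of 16630, 1108 and 103 of 16775, and 3010 and 353 of 16131. The mean level over all member regions shows the division within the group: LFCR mice 63 and 67 stood at 52.3% and 53.5%, LFCR mice 69 and 72 at 59.7% and 62.0%, and the 5 Control mice at 61.0% to 66.8%. Each mean runs over the member regions a mouse had, 119 in Control mouse 1 and 132 to 137 in the other mice named here. The same 4 LFCR mice had mean levels of 52.4%, 52.9%, 58.6% and 61.1% over all tested regions.

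**Figure D2:**
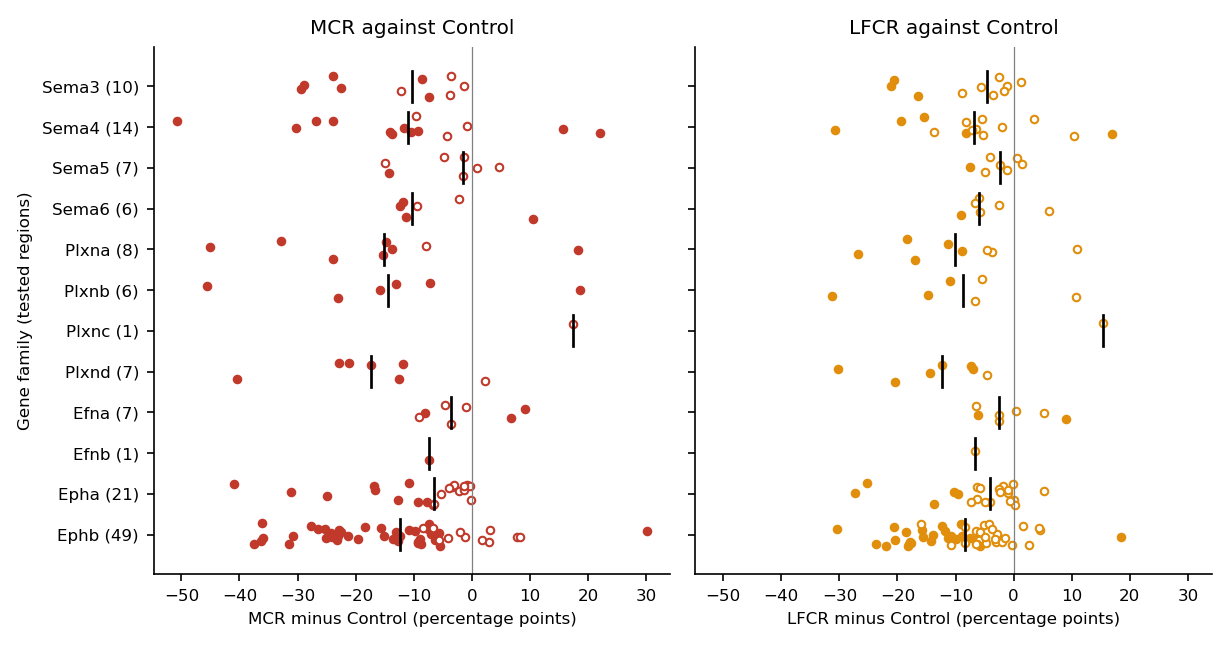
Difference from Control in percentage points at the 137 tested member regions, by family, for MCR (left) and LFCR (right). Filled points passed the test, open points did not, and the black bar is the family median, which is -17.4 points for Plxnd1 and -1.51 points for Sema5b in MCR.

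Among the semaphorins, 6 of 10 Sema3 regions (60%) and 9 of 14 Sema4 regions (64.3%) were lower in MCR, shares near the 55.6% of all regions. For Sema6 the count was 3 of 6 (50%) and for Sema5b 1 of 7 (14.3%). Gains were seen at 2 Sema4d regions and 1 Sema6c region. Centred per mouse, 4 Sema3, 4 Sema4, 0 Sema5b and 0 Sema6 regions were lower and 2, 3, 2 and 2 were higher, and the Sema5b median turned to 8.58 points. All 4 regions of Sema3f, a secreted ligand of neuropilin-2 that repels axons and vessels, were lower, and so were all 3 of Sema6b and all 3 of Sema4c, both membrane-bound semaphorins (2, 0 and 1 after centring).

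Sema4d is the membrane-bound ligand of Plxnb1 and promotes vessel growth. Its region at chr13:51777552-51777588 (4 CpGs) lies in the gene body, 16.1 kb from the 5′ end of the RefSeq gene. Distances below, unless said otherwise, run from that end of a gene to the centre of a region. It stood at 20.1%, 9.07% and 13.9% in MCR, 19.9%, 19.7%, 46.4% and 51.1% in LFCR, 38.8%, 54.4% and 49.2% in LFD, 32.9%, 58.8%, 53.3%, 67.2% and 66.8% in ICR and 58.6%, 66.7%, 60.5%, 75.5% and 64.3% in Control. Obese mouse 22 was at 46.3%. All MCR, LFCR and LFD mice lay below every Control mouse, and the ICR group overlapped with Control. The loss was 50.7 points in MCR (SE 7.77, adjusted p = 0.000295) and 30.8 points in LFCR (adjusted p = 0.00893), both by limma with Benjamini-Hochberg adjustment, and the LFCR call was lost without LFCR mouse 63.

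A second Sema4d region moved the other way. At chr13:51748362-51748793 (11 CpGs, 0.23 kb from a RefSeq start inside the gene, whose sequence is printed above) the levels were 56.3%, 60.0% and 61.7% in MCR, 62.8%, 64.8%, 48.5% and 40.5% in LFCR, 49.3%, 43.6% and 43.2% in LFD, 52.1%, 54.0%, 42.7%, 44.5% and 45.01% in ICR and 33.9%, 35.9%, 45.9%, 35.2% and 35.4% in Control. The 3 MCR mice lay above all 5 Control mice. The gain was 22.1 points in MCR (adjusted p = 0.000805) and 16.9 points in LFCR (adjusted p = 0.0101, limma), the second lost without LFCR mouse 63 or 67. Of the other Sema4d regions, the one at chr13:51736404-51736516 was 15.7 points higher in MCR (limma, adjusted p = 0.0210), a call lost without MCR mouse 85 or 96 or Control mouse 2. Those at chr13:51710979-51711108 and chr13:51746349-51746498 differed by -30.2 and -13.7 points (limma). Sema4d had 8 lower and 13 higher CpGs among its 47 tested singly in MCR.

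**Figure D3:**
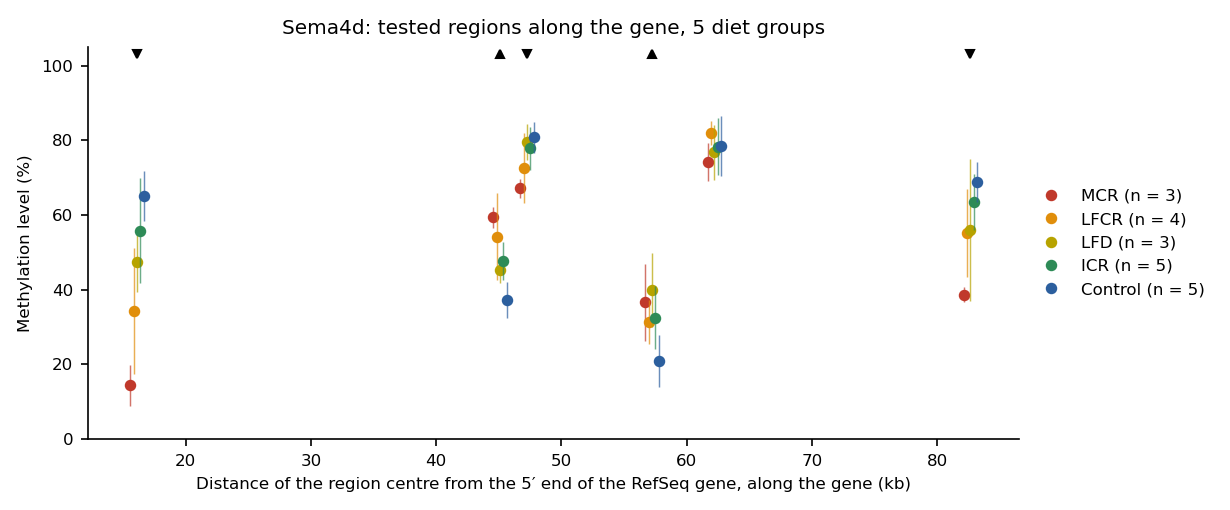
Methylation level in percent (mean with SD over mice) at the 6 tested Sema4d regions against the distance in kb of the region's centre from the 5′ end of the RefSeq gene, for MCR, LFCR, LFD, ICR and Control. Triangles at the top mark regions that passed the test in MCR against Control, pointing down for 3 losses and up for 2 gains.

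Sema3b, a secreted semaphorin studied as a tumour suppressor, had the largest loss of the 10 tested member regions annotated as promoter. No RefSeq start was matched to Sema3b, so this class rests on the deposited annotation and the distance from a start is unknown. Its 1st exon region at chr9:107604983-107605111 (8 CpGs) stood at 46.8%, 51.0% and 49.3% in MCR, 49.0%, 48.2%, 61.6% and 67.2% in LFCR, 51.0%, 69.0% and 60.9% in LFD, 64.5%, 55.6%, 64.2%, 71.7% and 69.9% in ICR, 65.6% in Obese mouse 22 and 76.7%, 82.5%, 69.9%, 63.8% and 71.8% in Control. MCR and Control did not overlap. The difference was -23.9 points in MCR (SE 5.01, adjusted p = 0.000901) and -16.5 points in LFCR (adjusted p = 0.0144, limma). The neighbouring promoter region (chr9:107605265-107605328, 4 CpGs) was at 28.3% ± 7.73 (SD, n = 3) in MCR and 40.5% ± 6.94 in Control (SD, n = 5), and that difference did not pass (limma, adjusted p = 0.0578).

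The Sema3f region at chr9:107695528-107695721 (7 CpGs) had 47.8%, 53.2% and 47.4% in MCR, 50.7%, 49.7%, 64.8% and 65.8% in LFCR, 56.6%, 80.1% and 69.1% in LFD, 62.7%, 61.2%, 66.9%, 71.4% and 65.9% in ICR and 84.7%, 83.4%, 78.5%, 69.8% and 77.7% in Control. MCR and LFCR were each separate from Control, with differences of -29.4 points (adjusted p = 0.000314) and -21.1 points (adjusted p = 0.00829, limma). The single CpG at position 107699396 of chromosome 9 in Sema3f fell by 52.7 points, with 18.4% ± 1.03 in MCR (SD, n = 3) and 71.2% ± 8.97 in Control (SD, n = 5; limma, adjusted p = 0.00110).

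Sema6c, a membrane-bound semaphorin, held a long island at its 3' end with 2 neighbouring regions. In the 3'UTR part, chr3:95173289-95173904 with 42 CpGs, the levels were 28.4%, 29.7% and 26.4% in MCR, 24.8%, 25.6%, 26.1% and 18.3% in LFCR, 33.9%, 21.9% and 25.998% in LFD, 24.2%, 23.5%, 24.0%, 19.4% and 16.8% in ICR and 17.3%, 12.4%, 16.1%, 23.9% and 18.4% in Control. Every MCR mouse was above every Control mouse, by 10.5 points on average (SE 2.97, limma, adjusted p = 0.00585). The body part next to it, chr3:95172386-95173267 with 69 CpGs, stood at 48.7% in MCR and 51.0% in Control and did not pass (limma, adjusted p = 0.336).

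Among the plexins, the receptors of the semaphorins, 17 of the 22 tested regions were lower in MCR, beside 55.6% of all regions. The losses were 6 of 8 in Plxna1 and Plxna4, 5 of 6 in Plxnb1 and Plxnb2 and 6 of 7 in Plxnd1. Among all regions at 50 to 80% in Control, 66.2% were lower. The single region of Plxnc1, the receptor of Sema7a, stood at 77.0% in MCR and 59.6% in Control and did not pass (limma, adjusted p = 0.0740). Plxnb1 and Plxna1 each had 1 gain, beside 6.92% of all regions higher. Centred per mouse, 10 plexin regions were lower and 4 higher, and Plxnc1 passed with 26.5 points.

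Plxnb2, a receptor of Sema4 ligands expressed in many epithelia, had 3 of 3 regions lower. Its region at chr15:89169713-89169791 (4 CpGs) stood at 9.17%, 12.7% and 12.5% in MCR, 11.5%, 9.25%, 33.4% and 48.9% in LFCR, 10.3%, 44.7% and 30.9% in LFD, 37.1%, 22.5%, 43.9%, 45.7% and 44.7% in ICR, 56.3% in Obese mouse 22 and 60.3%, 70.7%, 48.6%, 46.0% and 59.9% in Control. All MCR, LFD and ICR mice lay below every Control mouse, whereas LFCR mouse 72 lay within the Control range. LFCR mice 63 and 67 and LFD mouse 42 were as low as the MCR mice. The loss was 45.6 points in MCR (SE 8.57, adjusted p = 0.000502) and 31.4 points in LFCR (adjusted p = 0.0104, limma), the second lost without LFCR mouse 63 or 67.

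Plxna1 is a receptor for Sema3 and Sema6 ligands. At chr6:89360800-89360995 (5 CpGs, an island shore) it stood at 36.3%, 21.7% and 19.2% in MCR, 26.9%, 32.3%, 54.6% and 62.3% in LFCR, 28.8%, 58.4% and 45.6% in LFD, 56.5%, 36.1%, 58.6%, 51.1% and 66.2% in ICR and 77.2%, 73.3%, 68.0%, 64.5% and 71.2% in Control, a loss of 45.1 points in MCR (limma, adjusted p = 0.000384). Another body region, chr6:89334873-89334935, was at 94.7%, 94.3% and 92.3% in MCR, against 76.8%, 66.3%, 76.8%, 76.9% and 80.3% in Control, a gain of 18.3 points (limma, adjusted p = 0.00290). The 2 regions of 1 gene thus moved in opposite directions, with no overlap between MCR and Control at either. At the shore region LFCR and LFD also lay wholly below Control, and ICR mouse 112 lay within the Control range.

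Plxnd1, the endothelial receptor of Sema3e, had losses from near its start to its far end. At chr6:115959050-115959174, 36.2 kb into the gene, the levels were 28.1%, 25.9% and 38.1% in MCR, 24.6%, 25.4%, 51.2% and 62.5% in LFCR, 34.8%, 68.8% and 50.1% in LFD, 54.5%, 47.1%, 47.9%, 67.8% and 55.5% in ICR and 76.8%, 81.1%, 67.7%, 60.2% and 70.2% in Control. All MCR mice lay below every Control mouse, whereas LFCR mouse 72, LFD mouse 47 and ICR mouse 106 lay within the Control range. The loss was 40.5 points in MCR (limma, adjusted p = 0.000775). Nearer the start, 3.48 kb into the gene, a region of 4 CpGs was at 6.70% in MCR and 29.6% in Control, a difference of -22.9 points (limma). Only the region 23.8 kb into the gene did not pass, with 46.8% in MCR and 44.6% in Control (limma, adjusted p = 0.477).

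Plxnb1, the receptor of Sema4d, had the only member promoter that was higher in MCR. Its 1st exon region at chr9:109100275-109100306 (3 CpGs, 6.44 kb from the gene's 5′ end) stood at 72.9%, 83.6% and 83.0% in MCR, 79.7%, 85.8%, 60.1% and 62.4% in LFCR, 72.5%, 63.2% and 62.8% in LFD, 67.4%, 74.7%, 64.3%, 63.8% and 62.5% in ICR, 53.5% in Obese mouse 22 and 57.3%, 60.4%, 65.9%, 58.1% and 64.6% in Control. All MCR mice lay above every Control mouse, and LFCR mice 69 and 72 lay within the Control range. The gain was 18.6 points in MCR (SE 4.95, limma, adjusted p = 0.00415), and the LFCR difference of 10.8 points did not pass (adjusted p = 0.0692).

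**Figure D4:**
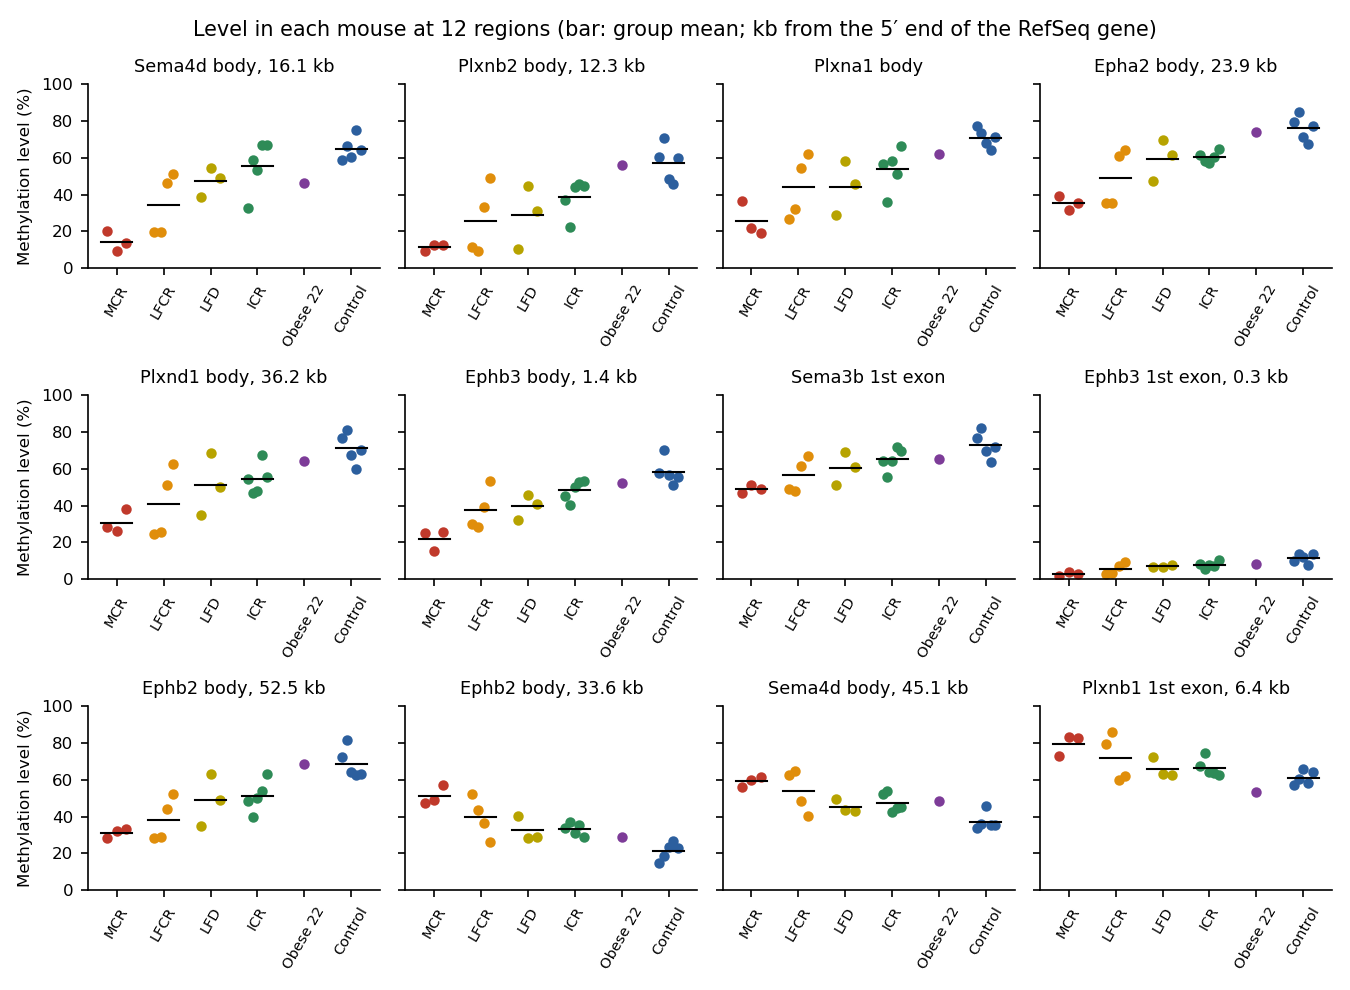
Methylation level in percent in each mouse (points) with the group mean (bar) at 12 member regions, for MCR, LFCR, LFD, ICR, Obese mouse 22 and Control. At the first 9 panels the MCR mice are the lowest or among the lowest, at the last 3 they are among the highest, and LFCR mice 63 and 67 lie near the MCR mice in each of these last 3.

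The ephrins had few tested regions and small differences. Of 7 ephrin-A regions 1 was lower and 2 were higher in MCR, and the 1 ephrin-B region, in Efnb3, was lower. Of all regions 55.6% were lower and 6.92% higher. Centred per mouse, 0 ephrin-A regions were lower, 5 were higher and Efnb3 did not pass. Efna1, the main ligand of Epha2, had 1 region at a Control level of 8.87% that was lower by 8.02 points. Efna3 was higher in a 3'UTR region, chr3:89314336-89314450, with 67.1%, 57.2% and 67.5% in MCR, 71.0%, 66.7%, 59.0% and 58.7% in LFCR, 74.3%, 67.8% and 61.6% in LFD, 57.3%, 63.7%, 63.5%, 57.3% and 58.3% in ICR and 58.0%, 53.3%, 57.7%, 56.4% and 48.7% in Control. All LFCR and LFD mice lay above every Control mouse, whereas MCR mouse 95 lay within the Control range. The gain was 9.11 points in MCR (adjusted p = 0.0325) and 9.02 points in LFCR (adjusted p = 0.0387, limma), and both calls were lost without Control mouse 2 or 13 or without either of 2 mice of the diet group, and with limma's trend and robust options (adjusted p = 0.0558 in MCR and 0.0620 in LFCR). Efna2 had a body island region 6.70 points higher in MCR (limma, adjusted p = 0.0269), lost without Control mouse 2 or MCR mouse 96, on the arcsine square root scale (adjusted p = 0.0668), with limma's trend and robust options (0.0825) and with all 25 libraries (0.0639). The Efna3 start printed above had 0.725% in MCR and 0% in Control.

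Among the Eph receptors, 9 of 21 Epha regions (42.9%) and 37 of 49 Ephb regions (75.5%) were lower in MCR, beside 55.6% of all regions. Ephb2 held 27 of these 37. The only higher region was in Ephb, beside 6.92% higher of all regions. Centred per mouse, 4 Epha and 18 Ephb regions were lower, 5 and 7 were higher, and the Epha median of -6.53 points turned to 3.56 points. Of the centred Ephb calls, Ephb2 held 17 of the 18 lower and 2 of the 7 higher. Epha6 and Epha4 had no region that passed, with medians of -1.26 and -0.24 points. Epha8 had 3 of 6 regions lower and Ephb1 3 of 7, and after centring Epha8 had 1 lower and 2 higher and Ephb1 had 0 lower and 3 higher. Ephb4, the receptor of ephrin-B2 on veins and mammary epithelium, had 4 of 6 lower, and no Ephb4 region passed after centring. The Ephb4 region 0.69 kb after the start was at 1.33% in MCR and 14.98% in Control, a difference of -13.6 points (limma).

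Epha2, a receptor of ephrin-A1 that is active in mammary duct branching and in breast cancer cells, had 4 of 6 regions lower in MCR. At chr4:141325111-141325169 (3 CpGs, 23.9 kb from the start) it stood at 39.3%, 31.4% and 35.4% in MCR, 35.3%, 35.6%, 60.8% and 64.3% in LFCR, 47.6%, 69.5% and 61.7% in LFD, 61.7%, 58.6%, 57.3%, 60.5% and 65.0% in ICR, 74.1% in Obese mouse 22 and 79.5%, 85.1%, 71.6%, 67.7% and 77.5% in Control. MCR, LFCR and ICR each lay wholly below Control, whereas LFD mouse 47 overlapped. The loss was 41.0 points in MCR (SE 6.17, adjusted p = 0.000293) and 27.3 points in LFCR (adjusted p = 0.00829, limma). The Epha2 region 0.31 kb from its start was at 0.253% in MCR and 1.05% in Control and did not pass (limma, adjusted p = 0.648).

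Ephb2, a receptor of the ephrin-B ligands that sorts cells into compartments in epithelia, was lower in MCR along most of its length. Of its 31 regions 27 were lower and 1 higher, a share of 87.1% beside the 55.6% of all regions, and the median difference was -21.4 points. In LFCR 21 were lower and 1 higher. Averaged over the 31 regions, the mice stood at 50.6%, 49.8% and 49.96% in MCR, 49.1%, 51.0%, 59.8% and 63.3% in LFCR, 52.9%, 64.5% and 60.5% in LFD, 62.1%, 57.3%, 62.9%, 62.6% and 64.7% in ICR, 64.2% in Obese mouse 22 and 66.8%, 71.6%, 66.4%, 65.7% and 67.4% in Control. Every tested mouse on a weight-loss diet was below every Control mouse, where ICR mouse 102 had a value at 30 of the 31 regions. The regions share a gene and the mice, and whether Ephb2 differs from other long genes was not tested.

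The largest Ephb2 loss was at chr4:136783749-136783954 (10 CpGs, 52.5 kb into the gene). The levels were 28.4%, 32.1% and 33.4% in MCR, 28.5%, 28.8%, 43.9% and 52.3% in LFCR, 34.8%, 63.0% and 49.2% in LFD, 48.3%, 39.9%, 49.9%, 53.7% and 63.4% in ICR and 72.5%, 81.5%, 64.2%, 62.8% and 63.0% in Control. MCR and LFCR each lay wholly below Control, and ICR mouse 112 and LFD mouse 47 overlapped with it. The difference was -37.5 points in MCR (SE 6.51, adjusted p = 0.000379) and -30.4 points in LFCR (adjusted p = 0.00771), by limma. The largest loss among the 1181 tested member CpGs was also in Ephb2, at position 136750877 of chromosome 4, with 17.4% ± 3.34 in MCR (SD, n = 3) and 79.98% ± 6.58 in Control (SD, n = 5; limma, adjusted p = 0.000804).

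One Ephb2 region amid these losses was higher. At chr4:136802611-136802782 (9 CpGs, 33.6 kb into the gene) the levels were 47.6%, 49.0% and 57.5% in MCR, 52.3%, 43.7%, 36.5% and 26.3% in LFCR, 40.4%, 28.4% and 28.6% in LFD, 34.0%, 37.2%, 31.2%, 35.2% and 28.9% in ICR, 28.7% in Obese mouse 22 and 14.9%, 18.6%, 23.4%, 26.5% and 22.8% in Control. All MCR, LFD and ICR mice lay above every Control mouse. The gain of 30.1 points in MCR (SE 4.55, adjusted p = 0.000293) and of 18.5 points in LFCR (adjusted p = 0.00876, limma) was the largest of the members in both diets. The nearest tested regions, 24.9 and 35.7 kb into the gene, differed by -23.1 and -30.8 points in MCR.

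**Figure D5:**
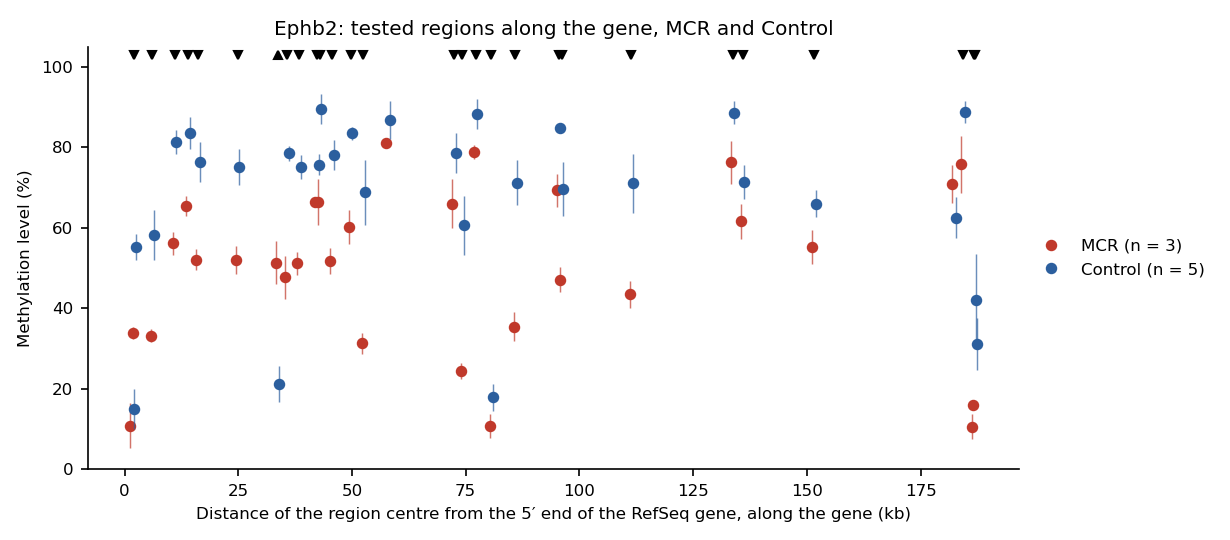
Methylation level in percent (mean with SD over mice) at the 31 tested Ephb2 regions in MCR and Control against the distance in kb of the region's centre from the 5′ end of the RefSeq gene. Triangles at the top mark regions that passed the test, 27 pointing down for losses and 1 pointing up for the gain 33.6 kb into the gene, where MCR stands at 51.4% and Control at 21.2%.

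Ephb3, a receptor of ephrin-B ligands found in epithelial crypts, was lower both at and behind its start. Its 1st exon island at chr16:21204797-21205016 (10 CpGs, among them the 3 printed above) had 1.78%, 3.67% and 2.49% in MCR, 2.71%, 3.20%, 7.15% and 9.33% in LFCR, 6.54%, 6.63% and 7.78% in LFD, 8.31%, 5.34%, 7.77%, 6.93% and 10.5% in ICR and 9.96%, 13.8%, 11.8%, 7.67% and 13.8% in Control. The groups did not overlap between MCR and Control, and all levels were low (MCR difference -8.77 points, limma, adjusted p = 0.00175). Under centring this difference turned to 1.32 points (adjusted p = 0.586), and with all 25 libraries it did not pass (limma, adjusted p = 0.283). About 1.36 kb into the gene, at chr16:21205884-21206079 (7 CpGs), the levels were 25.2%, 14.99% and 25.7% in MCR, 29.8%, 28.3%, 39.2% and 53.6% in LFCR, 32.4%, 46.0% and 40.6% in LFD, 45.1%, 40.1%, 49.9%, 52.8% and 53.6% in ICR and 57.5%, 70.3%, 56.5%, 51.3% and 55.7% in Control. MCR and LFD each lay wholly below Control, and LFCR mouse 72 and ICR mice 106 and 112 lay within the Control range. The loss was 36.3 points in MCR (SE 5.33, adjusted p = 0.000286) and 20.5 points in LFCR (adjusted p = 0.00939, limma).

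Over the 10 tested member promoters, 5 were lower (50%) and 1 higher (10%) in MCR, near the 52.3% and 6.22% of all 2604 promoter regions. The lower ones were at Sema3b, Ephb3, Ephb6 and 2 at Epha10. Ephb6 is an Eph receptor without kinase activity, and its 1st exon region, 10.5 kb from the gene's 5′ end, was at 87.5% ± 2.51 in MCR (SD, n = 3) and 95.1% ± 1.22 in Control (SD, n = 4; limma, adjusted p = 0.0451), a call lost on leaving out any 1 of 10 mice or with all 25 libraries and turned to 2.44 points by centring. The Epha10 regions annotated as upstream promoter, at chr4:124898415-124898478 and chr4:124898582-124898645, lie 16.9 and 17.1 kb inside the RefSeq gene and were lower by 10.8 points (adjusted p = 0.0181) and 9.33 points (adjusted p = 0.0358, limma), and centring moved them to -0.746 and 0.759 points. The lowest of the Epha promoters, the Epha10 1st exon island, was at 5.78% in MCR and 7.91% in Control (limma, adjusted p = 0.542), and under centring was 7.83 points higher in MCR (adjusted p = 0.00838). The highest Plxna promoter, in the Plxna1 1st exon, was at 80.8% in MCR and 88.6% in Control and did not pass (limma, adjusted p = 0.102), and centring turned it to 2.21 points. Centred per mouse, 1 member promoter was lower and 2 were higher. Counted as CpGs, 23 of 101 tested promoter CpGs were lower and 2 higher in MCR, beside 24.7% and 3.41% of all promoter CpGs. The counts were 364 lower and 42 higher of 970 body CpGs, beside 34.6% and 4.71% of all body CpGs, and 24 lower and 17 higher of 103 in 3'UTRs, beside 37.3% and 5.65%. Of the promoter CpGs 49 were under 10% in Control.

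Over single CpGs, 413 of 1181 member CpGs were lower and 61 higher in MCR, against 32.8% lower and 4.54% higher of all 129217 tested CpGs. In LFCR 178 were lower and 19 higher, against 12.1% and 1.48% of all CpGs. Ephb2 held 231 of the 1181 member CpGs, 131 of the 413 losses in MCR and 62 of the 178 in LFCR. The LFCR total was 0 without LFCR mouse 63 or 67, 17 without Control mouse 2, 102 without Control mouse 1 and 339 without LFCR mouse 72. Over all CpGs, 10 were lower and 2 higher of 127348 without LFCR mouse 63, and 18 and 5 of 128640 without LFCR mouse 67. The counts were 1701 and 165 of 123982 without Control mouse 2, and 7274 and 798 of 129085 without Control mouse 1. Without LFCR mouse 72 they were 28949 and 3690 of 127092. Under centring the MCR split became 222 lower and 254 higher, beside 20282 lower and 29536 higher of all CpGs, and the LFCR split 90 lower and 40 higher, beside 6417 and 4288. Of the 46 genes, 16 had no tested region, and 9 of these had tested CpGs, 21 in all, of which 1 (in Efna5) was lower and 0 were higher in MCR. Among them Efnb2, the ligand of Ephb4, was at 96.5% in MCR and 92.5% in Control over 2 CpGs, and Efna4 was at 0.790% in MCR and 0.449% in Control over 4.

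Few differences from Control passed in LFD or ICR anywhere in the table. In LFD no member region and 0.0534% of all regions passed. An unadjusted p under 0.05 (limma) was found at 49 of 137 member regions, beside 4904 of all 16842 regions. The smallest adjusted p was 0.0839, at the Efna3 3'UTR region, which was 13.0 points higher in LFD. Next by unadjusted p was the Sema3f region at chr9:107701735-107701903, with 13.9%, 27.6% and 33.2% in LFD and 47.3%, 51.7%, 40.6%, 34.9% and 45.7% in Control (limma, adjusted p = 0.0858), where every LFD mouse lay below every Control mouse. Without LFD mouse 47, 27 of 141 member regions passed, as did 2006 lower and 293 higher of 16989 regions in all, and without LFCR mouse 72, which enters only the shared variance, 9 of 136 passed, as did 752 lower and 133 higher of 16595 in all. In ICR no member region and 0% of all regions passed, and the smallest adjusted p of a member region was 0.234 (limma). An unadjusted p under 0.05 was found at 34 member regions, beside 3160 of all 16842 regions. The smallest unadjusted p were at regions of Plxna4, Sema4g, Sema5b, Sema3f and Ephb2 with differences of -17.8 to -7.20 points. At single CpGs neither diet had a call (0% of all CpGs in both). The unadjusted p was under 0.05 at 250 of 1181 member CpGs in LFD and 167 in ICR. Of all 129217 CpGs the counts were 24372 in LFD and 16527 in ICR. The mean was below Control at 120 of the 137 regions in MCR, 116 in LFCR, 109 in LFD and 112 in ICR, which share the same 5 Control mice. The whole table moved the same way. The median difference of all regions was -9.28 points in MCR, -5.91 in LFCR, -4.26 in LFD and -3.00 in ICR. In the member regions it was -9.53, -6.31, -4.41 and -3.17 points.

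Setting the diets against each other, no member region passed in MCR against LFCR (0% of all regions). An unadjusted p under 0.05 (limma) was found at 22 of 137 member regions, beside 2190 of all 16842 regions. The median MCR minus LFCR difference was -4.04 points, and the smallest adjusted p (limma) was 0.324. LFCR against LFD likewise gave 0 calls and 0% of all regions, with a smallest adjusted p of 0.798 among the members (limma). The unadjusted p was under 0.05 at 10 member regions, beside 900 of all 16842 regions. Between MCR and ICR 52 member regions were lower in MCR and 2 higher, against 29.2% and 2.82% of all regions. Ephb2 held 20 of the 52 lower regions and 1 of the 2 higher. Of the other 106 member regions 32 were lower and 1 higher. The largest of the 52 was the Sema4d region 16.1 kb into the gene, 41.4 points lower in MCR than in ICR (limma, adjusted p = 0.0136). It was followed by the Plxna1 shore region (adjusted p = 0.0212) and the Plxnb2 region at -27.3 points (adjusted p = 0.0275, limma). Both of these calls were lost without MCR mouse 95 or 96 or ICR mouse 112. The Plxna1 call was also lost with all 25 libraries (adjusted p = 0.0558), and the Plxnb2 call under centring (0.0526) and without any 1 of 3 further mice (limma). The MCR against ICR count was 9 without MCR mouse 95, 18 without MCR mouse 96 or ICR mouse 112, 21 without MCR mouse 85 and 26 without ICR mouse 106. Over all regions, 790 were lower and 84 higher of 21854 without MCR mouse 95. The counts were 2170 and 187 of 17119 without MCR mouse 96, and 1830 and 163 of 17154 without MCR mouse 85. Without ICR mouse 112 or 106 they were 1807 and 151, or 2737 and 238, of 16802. Centring gave 14 lower and 5 higher member regions, beside 1021 and 1018 of all regions.

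Genes that work with the members, and other guidance systems, had shares of lower regions in MCR of 46.4% to 63.0%, around the 55.6% of all regions. Of 53 tested regions of semaphorin co-receptors and plexin effectors 27 were lower (50.9%) and 3 higher, with a median of -9.59 points. Among them Nrp2, the neuropilin that binds Sema3f, had a body region at 29.5% ± 1.84 in MCR (SD, n = 3) and 61.7% ± 9.85 in Control (SD, n = 4, limma, adjusted p = 0.00656). Mical3, of the family of plexin-linked oxidases, had 1 body region at 78.2% in MCR and 47.1% in Control (limma, adjusted p = 0.000314). Another Mical3 body region went the other way, with 45.4% in MCR and 75.4% in Control (limma, adjusted p = 0.00117). Of 46 regions of Eph effectors 29 were lower (63.0%) and 3 higher (median -14.4 points), with Vav2, an exchange factor recruited by Eph receptors, at 29.3% in MCR and 75.5% in Control in a 3'UTR region. Of 29 Slit and Robo regions, another guidance system, 16 were lower (55.2%) and 4 higher (median -10.03 points), and of 56 regions of netrins and their receptors 26 were lower (46.4%) and 5 higher (median -6.95 points). Centred per mouse, the same 4 lists gave 12, 15, 5 and 10 regions lower and 14, 8, 8 and 17 higher.

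Markers of the cell types a fat pad can hold moved as well, and their part in the member values was not tested. The tested regions came from 4 of 12 adipocyte genes, 8 of 14 luminal epithelial, 6 of 10 endothelial and 2 of 8 fibroblast genes. Also tested were 9 of 20 leukocyte, 6 of 8 skeletal muscle, 2 of 6 Schwann and nerve and 1 of 8 basal epithelial genes. Some sets thus rest on few genes. Of all regions 55.6% were lower and 6.92% higher in MCR. In MCR 9 of 13 adipocyte regions were lower and 2 higher, with summary levels of 63.1% to 65.0% in the MCR mice and 69.4% to 76.4% in the Control mice. A summary level is the mean over the regions a mouse had, so mice of 1 set can be averaged over different regions. How far missing regions shape the ranges given here was not tested. Luminal epithelial regions gave 10 of 20 lower and 2 higher (27.7% to 31.6% in MCR, 34.5% to 54.4% in Control), endothelial regions 12 of 19 and 2 (48.0% to 49.2% in MCR, 57.2% to 61.0% in Control), and fibroblast regions 8 of 10 and 0 (51.9% to 55.6% in MCR, 68.2% to 76.6% in Control). Leukocyte regions gave 7 of 16 lower and 5 higher, 31.3% higher beside 6.92% of all regions, with 60.6% to 62.0% in MCR and 61.3% to 65.6% in Control. Skeletal muscle regions gave 7 of 14 lower and 1 higher, Schwann and nerve regions 8 of 14 and 1, and the 2 basal epithelial regions did not pass. Centred per mouse, the lower and higher counts were 3 and 2 for adipocyte, 3 and 5 for luminal epithelial, 5 and 3 for endothelial, 5 and 0 for fibroblast, 4 and 7 for leukocyte, 0 and 4 for skeletal muscle, 1 and 2 for Schwann and nerve and 0 and 1 for basal epithelial regions. The deposited table holds methylation and no cell counts, so a change within a cell type and a change in the share of cell types cannot be told apart here.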

How the data were processed

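DNA of 25 fat pads was analysed by RRBS after MspI digestion, per the labels' protocols. Reads were processed with Bismark on mm10, per the submitters' processing notes, and versions, filters and trimming are not given in the sources used here. The deposited table lists 283974 CpGs with the methylation fraction per library (printed here in percent), the average coverage signal over 21 libraries and the authors' gene and feature annotation; its group percent values and its p-values and q-values were not used. It holds no read counts per library, so no binomial intervals or depths per mouse were computed.

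CpGs needed an average coverage of 10 reads. Regions were runs of at least 3 CpGs of 1 gene and class with gaps of at most 100 bp, and a mouse needed 0.5 of a region's CpGs. A mouse's level was the mean of the CpG means plus its mean deviation over the CpGs it had, so that missing CpGs do not shift it. Regions and CpGs with at least 3 mice in each of 5 groups were fitted by limma 3.58.1 in R 4.3.3 (with the data.table package, version 1.17.8) on the level, 1 term per group, two-sided, with Benjamini-Hochberg adjustment over all 16842 regions or 129217 CpGs, where an adjusted p under 0.05 made a call. The fit was tested on simulated data. Labels do not say how mice were housed or processed together; p-values measure the spread between these mice.

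Named regions are the largest losses and gains per comparison, the highest and lowest promoter per family and all promoters called in MCR, of which the text gives a part. The members and all gene lists were chosen with earlier results of these data known. Sequences are from RefSeq promoter windows and distances from RefSeq gene spans, both on GRCm38.p6; 39 member genes matched, and all 10148 measured CpGs inside any window fell on a CG of the RefSeq sequence. The alternatives tried are coverage minima of 5 and 20, an arcsine square root scale, limma's trend and robust options, a minimum difference of 10 points, all 25 libraries, centring per mouse, 5 CpGs per region, gaps of 50 and 200 bp and leaving out each mouse.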

Additional observations from a re-analysis of the deposited data

Results flagged for a closer look

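Single mice stood apart from their group at 4 of the named regions, beyond what a test for an outlying value allows; 130 groups of 4 or 5 mice were examined, and chance flags about 1 in 20. At the Sema4d region that was higher in MCR, Control mouse 5 stood at 45.9% and the other Control mice at 33.9% to 35.9%. At the Plxna1 region that was higher in MCR, Control mouse 2 stood at 66.3% and the other Control mice at 76.8% to 80.3%. At the Sema6c 3'UTR island, LFCR mouse 72 stood at 18.3% and the other LFCR mice at 24.8% to 26.1%. At the Plxnd1 region 23.8 kb into the gene, Control mouse 5 stood at 38.6% and the other Control mice at 45.4% to 47.1%.

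The 4 libraries left out of the comparisons carried methylation at member regions that were under 10% in Control. Their median level there, over at most 5 regions, was 36.8% in Obese mouse 27, 39.1% in Obese mouse 28, 33.5% in Obese mouse 40 and 37.4% in LFD mouse 46. It was 0.559% to 9.05% in the Control mice.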

How the results depend on the processing

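No paired analysis was possible because every mouse has its own number and no number is shared between groups. With all 25 libraries, 88 member regions could be tested, and 53 were called in MCR, 33 in LFCR and 17 in MCR against ICR. Of all 9465 regions, 4668 were lower and 552 higher in MCR, 2200 and 259 in LFCR, and 1581 and 131 in MCR against ICR. Of 757 member CpGs, 216 were called in MCR and 30 in LFCR. Of all 76974 CpGs, 19176 were lower and 2400 higher in MCR, and 2118 and 198 in LFCR. With at least 5 CpGs per region, 62 could be tested, and 49, 33 and 32 were called in MCR, LFCR and MCR against ICR. Of all 7350 such regions, 4536 were lower and 618 higher in MCR, 3056 and 386 in LFCR, and 2904 and 289 in MCR against ICR. Centring each mouse gave 37 regions and 130 CpGs in LFCR and 19 regions in MCR against ICR. Centring also turned 5 named promoter differences in MCR to positive, at Epha10 (0.759 points at one, 7.83 at the other), Ephb6 (2.44), Ephb3 (1.32) and Plxna1 (2.21, which passed in neither). Of 538 values of named regions under settings that keep all mice, 515 kept direction and call and 18 kept direction only, among them Ephb3, Ephb6, Efna2 and Efna3 regions. Leaving out 1 mouse at a time gave 81 to 98 member regions in MCR, 10 to 71 in LFCR, 0 to 27 in LFD, 9 to 62 in MCR against ICR, and 385 to 493 CpGs in MCR and 0 to 339 in LFCR. It gave 0 calls throughout for ICR, MCR against LFCR and LFCR against LFD. The causes of these shifts were not tested, apart from the smaller number of regions tested. Depth per mouse is unknown, so small differences at single CpGs are the least certain.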
